A study of Epimedium pubescens with 12 samples.

Results

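The genes described here are 133 SAUR, auxin transport and GH3 genes of Epimedium pubescens, a medicinal herb of the barberry family, out of 53813 genes listed in the count table. They were chosen by annotation alone: the deposited protein description had to name a SAUR, an auxin-induced or auxin-responsive protein, an auxin efflux carrier, an auxin transporter, a PIN-LIKES protein or an indole-3-acetic acid-amido synthetase. Another 22 genes were left out as members of the Aux/IAA or ARF families. RNA was sequenced from leaves of one-year-old seedlings grown in sand, in 4 groups of 3 biological replicates named A, B and C. The groups were 90d -P and 30d -P, watered with nutrient solution without phosphate (0 mmol/L Pi) for 90 or 30 days, and 90d +P and 30d +P, watered with 1 mmol/L Pi for the same times. All 4 groups shared the light, temperature and sand culture, and the solutions without and with phosphate also differed in other salts. The methods do not say how many plants went into a library. Plants at 90 days were also older than those at 30 days, so time on a treatment and the age of plant and leaves cannot be told apart.

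Auxin is moved between plant cells by AUX/LAX carriers, which take it up, and by PIN carriers of the plasma membrane, which let it out on 1 side of the cell and so set its direction of flow. Short PIN proteins and the PIN-LIKES (PILS) proteins sit in the endoplasmic reticulum, where PILS proteins hold auxin back from the nucleus. GH3 enzymes join auxin, and for some members other hormones, to amino acids and so lower or change the active pool. SAUR genes (small auxin up RNA) encode short proteins, mostly from genes without introns. Many SAUR proteins of Arabidopsis raise the activity of plasma membrane proton pumps by blocking the phosphatases that switch the pumps off, which promotes cell expansion. In leaves such SAURs mark growing tissue, whereas SAUR36 is known in Arabidopsis as a gene of leaf senescence.

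The 133 members were 77 SAUR genes, 23 PIN-LIKES genes, 19 GH3 genes, 11 PIN genes and 3 AUX/LAX genes. The gene symbols below are those of the best matching protein in Arabidopsis, rice, soybean or barrel medic, so several genes share a symbol. The SAUR gene models had a median length of 345 bases and 14 of the 77 came from the authors' transcript assembly. No read was counted in any library on 32 members, among them 20 SAUR, 5 PIN-LIKES, 4 GH3 and 3 PIN genes. Another 47 had too few counts to be tested, and 54 passed the filter (23 SAUR, 15 PIN-LIKES, 7 PIN, 6 GH3 and all 3 AUX/LAX genes). The filter asks for counts in as many libraries as 1 group has, so a member can pass through the group in which it is high. Counts and medians over the 54 are therefore descriptions of the genes that passed.

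Levels between genes were compared in FPKM, which divides by gene length. By the mean over the 12 libraries, GH3.10 (Ebr03G018260) was first with 217 FPKM, LAX2 (Ebr02G060550) followed with 86.7 FPKM, and both SAUR36 genes had 85.3 and 83.1 FPKM. SAUR50 (Ebr0G010070), which was nearly silent in 90d -P, still averaged 75.5 FPKM. Levels between libraries were compared in CPM, counts scaled to a common library size after TMM normalization, and a gene was called when edgeR's adjusted p was at most 0.05 and its log2 fold change at least 1 in size. Total counts lay between 14756971 and 18153463 per library, so that 3 reads are worth about 0.2 CPM (between 0.168 and 0.207 CPM on average in a group). Spearman's rho between replicates lay between 0.87 and 0.966, and the replicates at 30 days differed from each other in many of the members. Over all genes, the A libraries of 30 days differed from other libraries of their groups. 30d -P replicate A was closest to 30d -P replicate B (0.931). It was closer to 30d +P replicates B and C (0.915 and 0.917) than to 30d -P replicate C (0.884). 30d +P replicate A was closer to 30d -P replicate C (0.913) than to 30d +P replicates B and C (0.888 and 0.891). The leaf label fitted the marker lists: 57 genes for chlorophyll a-b binding proteins and the small Rubisco subunit summed to between 23240 and 80770 CPM, and 3 Casparian strip genes of the root stayed at or under 0.128 CPM.

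The SAUR50 gene Ebr0G010070 is the member for which the study designed a primer pair for quantitative PCR, and the pair is shown because the gene had the lowest log2 fold change of all members without phosphate. It lies on Contig03193 from 41782 to 42096, on the minus strand, outside the 6 assembled chromosomes. SAUR50 promotes the opening of cotyledons in light in Arabidopsis. The study reports quantitative PCR of chosen genes, auxin response genes among them, with patterns that matched its sequencing data. Those PCR values were not used here.
SAUR50 forward primer: gtttgatatgactggtgggaag
SAUR50 reverse primer: ggatggggtatgagaagtaggt

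SAUR50 had 0.0608, 0.243 and 0.00 CPM in 90d -P replicates A, B and C, against 70.8, 15.4 and 5.67 CPM in 30d -P. Each 90d -P library lay below each 30d -P library, and the 30 day libraries spanned more than 10-fold among themselves. The log2 fold change was -8.13 (SE 1.62, adjusted p = 0.0259). With phosphate it had 1.21, 2.10 and 1.19 CPM in 90d +P, against 3.30, 101 and 87.7 CPM in 30d +P. These groups did not overlap either, and the log2 fold change of -5.40 (SE 1.31, adjusted p = 0.0507) fell just short of the call.

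A second SAUR marker was also near 0 in 90d -P and widely spread at 30 days. A10A5 (Ebr05G027150, chromosome 5, 206941494 to 206942963), named after a soybean gene of the group in which SAURs were first described, had 0.00, 0.00 and 0.0617 CPM in 90d -P, against 15, 4.05 and 2.36 CPM in 30d -P. Those values stand for 1 read in 90d -P and 308 reads in 30d -P, a ratio of 30d -P over 90d -P of 337 with a 95% exact interval for counting error of 60.0 to 13300, and of 157 without 30d -P replicate A, a setting added after the data were seen. The values with phosphate were 0.00, 2.15 and 0.00 CPM in 90d +P, against 0.396, 27.9 and 20.8 CPM in 30d +P, and here replicate B of 90d +P lay above replicate A of 30d +P. The log2 fold changes were -7.98 without phosphate (SE 2.39, adjusted p = 0.0716) and -4.49 with phosphate (SE 1.78, adjusted p = 0.17), and neither was called.

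**Figure D1:**
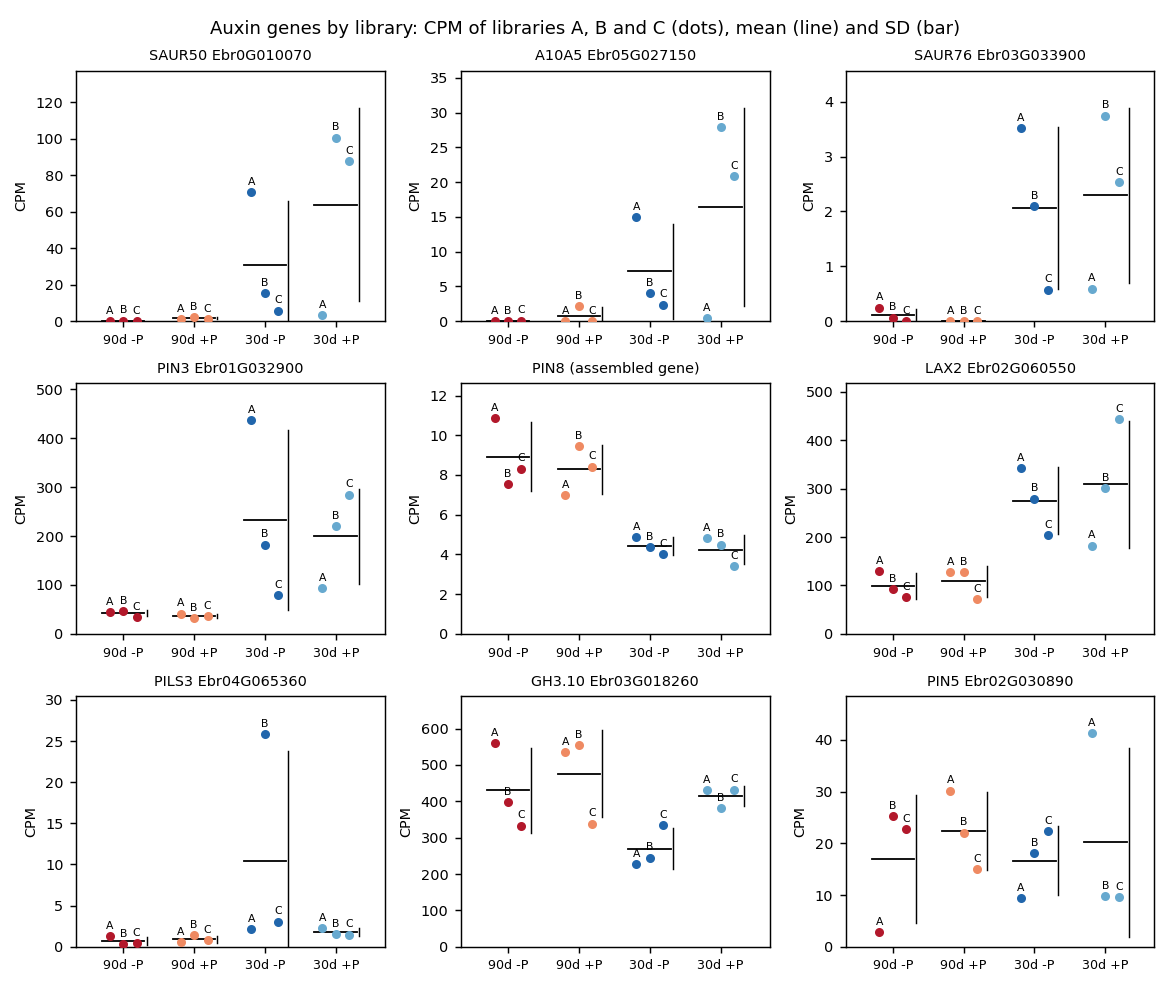
CPM (y axis, linear from 0, a scale for each gene) of 9 named genes in the 4 groups (x axis), with a dot for each library A, B or C, a line at the mean and a bar of 1 SD on either side that stops at 0 (n = 3). SAUR50, SAUR76, PIN3 and LAX2 lie lower at 90 days. A10A5 does so too, but for 90d +P replicate B, which lies above 30d +P replicate A. SAUR50, A10A5, SAUR76 and PIN3 are spread widely at 30 days. PIN8 lies higher at 90 days, and GH3.10 stays between 228 and 561 CPM.

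A10A5 ends a run of SAUR genes on chromosome 5. Runs were defined as 3 or more SAUR members with gaps of at most 1000000 bases, and 5 were found. The longest, on chromosome 5 from 205090294 to 206942963, held 29 SAUR genes, 13 of them from the assembly. A second run on the same chromosome, from 210613954 to 210870034, held 14 genes, and 1 on chromosome 4, from 494283636 to 495553842, held 11. Nearly all of their genes are named after SAUR20, SAUR21, SAUR22, SAUR24 and the soybean genes 10A5 and 15A, which belong to the group that promotes cell expansion. The other runs held 3 genes each. The 1 that begins at the SAUR36 gene Ebr04G058040, on chromosome 4 from 452516999 to 452559821, summed to 86.5, 72.3 and 107 CPM in 90d -P, against 77.4, 54.3 and 61.5 CPM in 30d -P, and to 96.0, 92.8 and 97.1 CPM in 90d +P, against 97.1, 136 and 99.02 CPM in 30d +P. The last, on chromosome 5 from 14647338 to 14832614, was higher at 90 days in both comparisons, with 4.80, 5.42 and 2.71 CPM in 90d -P, against 0.43, 1.18 and 1.79 CPM in 30d -P, and 5.09, 4.78 and 3.46 CPM in 90d +P, against 2.11, 1.05 and 0.868 CPM in 30d +P. Nearly all its reads lay on 1 gene, Ebr05G003010, with 210 in 90d -P, 52 in 30d -P, 231 in 90d +P and 54 in 30d +P. Its other genes had 0 to 6 reads in a group.

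The 3 runs of 11 or more genes, a limit not planned in advance, are called arrays from here on. They held 54 of the 77 SAUR genes, of which 38 had a read and 9 were tested. Together they had 19, 48 and 11 reads in 90d -P, against 607, 151 and 117 reads in 30d -P. With phosphate they had 38, 157 and 40 reads in 90d +P, against 69, 1015 and 946 reads in 30d +P. The groups without phosphate did not overlap, whereas replicate B of 90d +P lay above replicate A of 30d +P. The marker A10A5 is part of these sums. It had 308 of the 875 reads in 30d -P and 690 of the 2030 in 30d +P. At 90 days it had 1 of 78 in 90d -P and 40 of 235 in 90d +P. Reads were found on 12 of the 54 genes in 90d -P, against 30 in 30d -P, and on 18 in 90d +P, against 37 in 30d +P.

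Within the first chromosome 5 array, 17 of 29 genes had fewer reads in 90d -P than in 30d -P, 12 had none in either group and 0 had more. With phosphate the corresponding counts in 90d +P were 23, 6 and 0. These compare reads summed over 3 libraries, 3 of the 29 genes were tested, and the share over all genes was not counted. By library the array had 9, 7 and 8 reads in 90d -P, against 323, 87 and 72 in 30d -P. With phosphate it had 20, 54 and 22 reads in 90d +P, against 44, 690 and 639 in 30d +P. The chromosome 4 array was mixed at its first 2 genes, with 8 of 11 genes lower and 1 higher in 90d -P and 7 lower and 2 higher in 90d +P. How reads shared between near-identical copies were counted is not given in the sources used here, so values of single array genes are uncertain in a way that the sums are less exposed to. Some assembled genes of the array overlap on opposite strands, and strand in the counting is not given either.

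**Figure D2:**
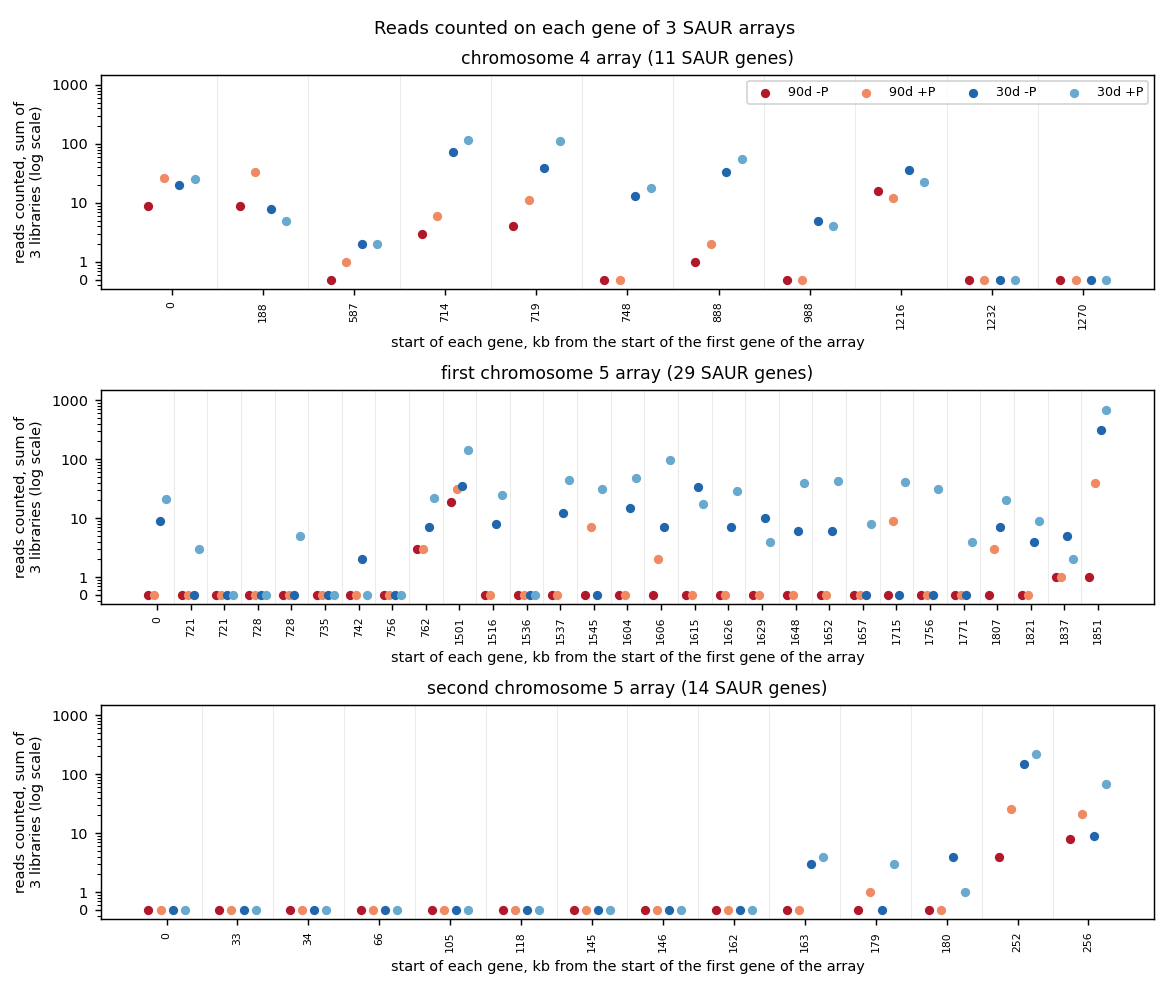
Reads counted on each gene of the 3 arrays, summed over the 3 libraries of a group (y axis, log scale, with genes without a read drawn at the mark 0), in order along the chromosome with the distance in kb from the first gene of the array (x axis, evenly spaced). The 90d -P and 90d +P dots lie at 0 for most genes of the first chromosome 5 array, where 17 genes have reads in 30d -P and 23 in 30d +P.

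The spread at 30 days had the same shape in most SAUR genes: 30d -P replicate A was above replicate C, and 30d +P replicate A was below both B and C. This order held in 14 of the 23 SAUR genes tested, in 10 of 15 PIN-LIKES genes, in all 3 AUX/LAX genes, in 3 of 7 PIN genes and in 0 of 6 GH3 genes, against 25.1% of all genes tested. The reverse order was found in 7 SAUR genes, against 26.1% of all genes. It was noticed after the values were seen and is given with no test. In the array sums it amounted to 43.6, 9.87 and 7.46 CPM in 30d -P and to 4.55, 76.1 and 63.2 CPM in 30d +P.

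SAUR76 was the SAUR gene called with phosphate. Ebr03G033900 (chromosome 3, 264452882 to 264453265) had no read in any 90d +P library, against 0.592, 3.75 and 2.54 CPM in 30d +P. Set against a floor of 3 reads per library, it was at least 13.7-fold lower in 90d +P (adjusted p = 0.0395 from edgeR). In 90d -P it had 0.243, 0.0608 and 0.00 CPM, against 3.52, 2.09 and 0.573 CPM in 30d -P, with a log2 fold change of -4.24 (SE 1.26, adjusted p = 0.0822). All its values are low, under 4 CPM.

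Other SAUR genes lay on the opposite side. SAUR36 (Ebr04G058040, chromosome 4, 452516999 to 452517733), named after a rice protein, had 76.6, 70.1 and 95.8 CPM in 90d -P, against 19.3, 34.3 and 50.4 CPM in 30d -P. The groups did not overlap and the log2 fold change was 1.22 (SE 0.36, adjusted p = 0.066), which missed the call by edgeR but was called by limma-voom. With phosphate it had 81.5, 71.0 and 85.6 CPM in 90d +P, against 77.1, 49.9 and 34.4 CPM in 30d +P, and these groups overlapped. The second SAUR36 gene (Ebr05G055100, chromosome 5, 404365434 to 404365943), named after the Arabidopsis protein, had 46.2, 78.0 and 60.7 CPM in 90d -P, against 10.9, 28.8 and 41.0 CPM in 30d -P. The log2 fold change was 1.20 (SE 0.45, adjusted p = 0.134). In 30d -P both genes were lowest in replicate A, the library in which SAUR50 and the arrays were highest.

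The genes in this paragraph were singled out after their values were seen. SAUR63 (Ebr04G058050), whose Arabidopsis namesake promotes the elongation of hypocotyls and stamen filaments, lies 15.6 kb from the SAUR36 gene Ebr04G058040 and on the other strand. It had 9.97, 2.25 and 11.6 CPM in 90d -P, against 58.1, 20.1 and 11.2 CPM in 30d -P, and 14.4, 21.8 and 11.5 CPM in 90d +P, against 20.04, 86.0 and 64.6 CPM in 30d +P. Its log2 fold changes were -1.91 without phosphate (SE 0.76, adjusted p = 0.15) and -1.84 with phosphate (SE 0.75, adjusted p = 0.184), so that neighbours 15.6 kb apart had opposite signs. A second gene named SAUR50 (Ebr05G003010, chromosome 5, 14647338 to 14647814) had 4.74, 5.36 and 2.71 CPM in 90d -P, against 0.43, 1.18 and 1.78 CPM in 30d -P. This gene holds nearly all reads of the last run described above, so its values largely repeat that sum. It was higher in each 90d -P library than in each 30d -P library, the reverse of Ebr0G010070, with a log2 fold change of 1.91 (SE 0.55, adjusted p = 0.0647).

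**Figure D3:**
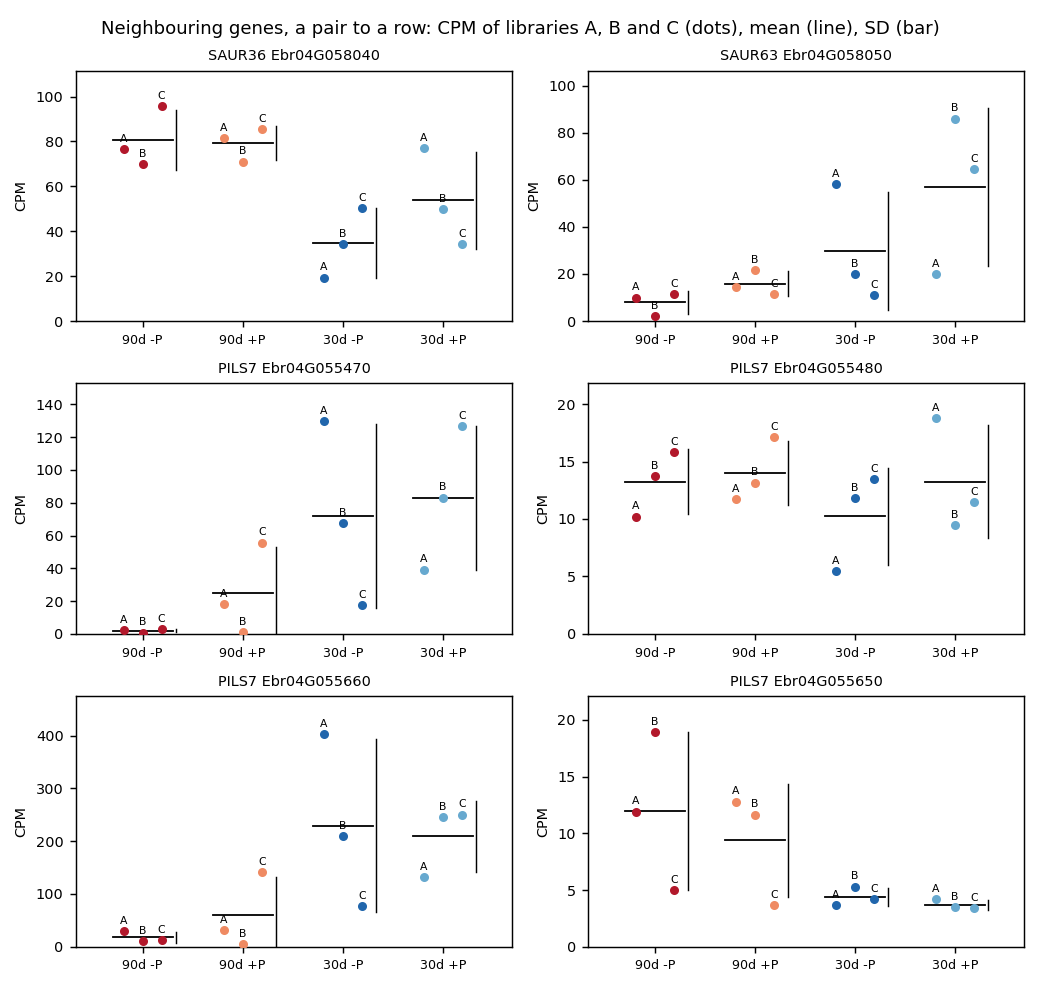
CPM (y axis, linear from 0) of 3 pairs of neighbouring genes, a pair to a row, in the 4 groups (x axis), with a dot for each library, a line at the mean and a bar of 1 SD that stops at 0 (n = 3). SAUR36 (Ebr04G058040) and SAUR63 (Ebr04G058050) have opposite signs over time, and in both PILS7 pairs the gene with the longer model is lower at 90 days while its shorter neighbour is not.

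Over the whole set without phosphate, 1 of the 54 members was called higher and 5 lower in 90d -P than in 30d -P, where edgeR called 1.63% of 24307 genes higher and 3.95% lower. The 6 were SAUR50, 1 gene each of PILS7, PILS3 and LAX2, and PIN3 as lower, and PIN8 as higher. Unadjusted p was under 0.05 for 7 members higher and 17 lower, against 10.7% and 14.7% of all genes. The groups did not overlap for 4 members higher and 18 lower, against 15.3% and 18.0% of all genes. The median log2 fold change of the 54 was -0.82, beside 0.03 over all genes, and that of the 23 SAUR genes -1.32. Summed over all 77 SAUR genes, these groups overlapped. The sums were 165.9, 185.5 and 199.9 CPM in 90d -P, against 231.4, 142.0 and 148.5 CPM in 30d -P.

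With phosphate, 0 members were called higher and 2 lower in 90d +P than in 30d +P (SAUR76 and PIN3), against 0.843% and 2.18% of all genes. Unadjusted p was under 0.05 for 4 members higher and 12 lower, against 9.12% and 13.0%. The groups did not overlap for 3 higher and 12 lower members, against 11.7% and 14.3%. The median log2 fold change was -0.36 for the 54 members and -1.98 for the 23 SAUR genes, beside 0.02 over all genes. The sums of all 77 SAUR genes were 199.0, 177.8 and 175.8 CPM in 90d +P. In 30d +P they were 201.6, 376.6 and 306.6 CPM, without overlap. In both time comparisons, which share no library, 29 of the 54 members had a negative log2 fold change in both, 12 a positive one in both, and 13 differed in sign. The share with equal signs was 75.9%, and 74.0% over all genes.

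Calls over time ended when single libraries were left out, some of them outside the comparison, while the log2 fold changes kept their direction. In 90d -P these ranged from -9.66 to -6.59 for SAUR50 (Ebr0G010070), -2.89 to -1.65 for PIN3 (Ebr01G032900), -1.71 to -1.29 for LAX2 (Ebr02G060550), -5.68 to -4.47 for PILS7 (Ebr04G055470), -4.67 to -1.93 for PILS3 (Ebr04G065360) and 0.84 to 1.11 for PIN8, and in 90d +P from -2.79 to -2.09 for PIN3. Without phosphate, all 6 ended when 30d -P replicate A, 30d -P replicate B or any of the 90d -P libraries was left out, and only SAUR50 was called without 30d +P replicate B, 30d +P replicate C or 90d +P replicate A. With phosphate, 0 members were called without any one of the 90d +P libraries, 30d -P replicate B, 30d +P replicate B, 30d +P replicate C or 90d -P replicate B, and SAUR76 alone without 90d -P replicate A or C. Leaving out 30d +P replicate A gave 4 calls, with SAUR50 at an adjusted p of 0.0172 and LAX2 at 0.0236 added. DESeq2 on the 6 libraries of a comparison called more members, 4 higher and 15 lower in 90d -P (against 4.0% and 8.99% of all genes) and 1 higher and 11 lower in 90d +P (against 2.82% and 6.26%). These included all 6 and both of edgeR's calls. limma-voom called 6 members in 90d -P, of which it shared PIN3, LAX2 and PIN8 with edgeR and not SAUR50 (Ebr0G010070), PILS7 (Ebr04G055470) or PILS3 (Ebr04G065360). The share of all genes called by limma-voom was not counted, so its 6 cannot be set against a general rate.

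**Figure D4:**
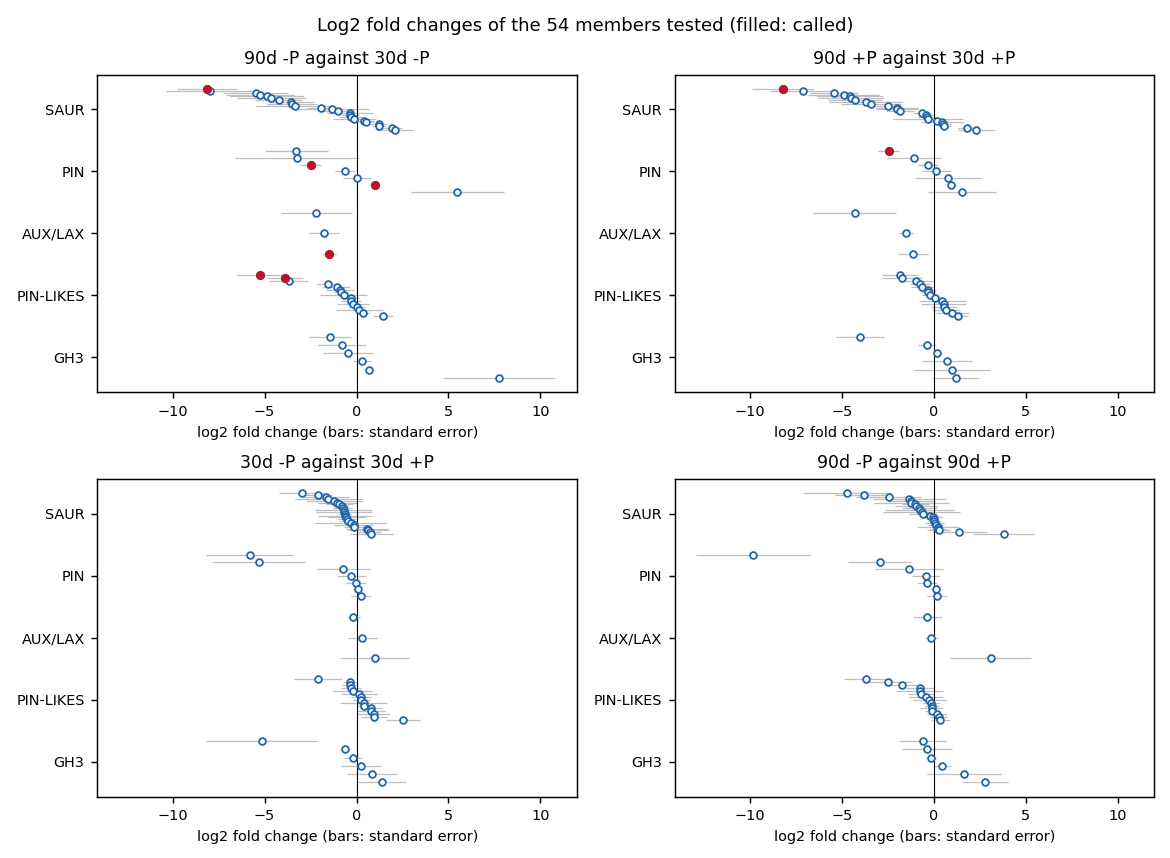
Log2 fold change (x axis) with its standard error (bars) of the 54 members tested, a dot each, by class (y axis), for both comparisons over time and both comparisons of phosphate supply. Filled dots are called: 6 in 90d -P against 30d -P, 2 in 90d +P against 30d +P, and none in the comparisons of -P with +P.

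Of the PIN genes, PIN3 (Ebr01G032900, chromosome 1, 291111278 to 291114761), the carrier known in Arabidopsis for redirecting auxin in bending organs, had the highest mean FPKM (47.6). The name is that of the deposited table, the study's text gives this gene ID a different protein name, and which of them holds was not tested. It had 44.4, 46.0 and 34.7 CPM in 90d -P, against 437, 183 and 79.6 CPM in 30d -P. The values with phosphate were 41.3, 31.9 and 36.5 CPM in 90d +P, against 92.8, 221 and 285 CPM in 30d +P. At 90 days the 6 libraries lay within 31.9 to 46.0 CPM, below each of the 30 day libraries, which differed among themselves more than 5-fold. The log2 fold changes were -2.48 without phosphate (SE 0.57, adjusted p = 0.0356) and -2.45 with phosphate (SE 0.57, adjusted p = 0.0465), and it was the member called in both comparisons.

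PIN8 (chromosome 2, 326941561 to 327018595), an assembled gene named after a rice protein whose Arabidopsis relative is a short carrier of the endoplasmic reticulum, was the member called higher. It had 10.9, 7.55 and 8.32 CPM in 90d -P, against 4.88, 4.38 and 4.02 CPM in 30d -P, and the log2 fold change was 1.01 (SE 0.26, adjusted p = 0.0478). With phosphate it had 6.97, 9.45 and 8.43 CPM in 90d +P, against 4.81, 4.50 and 3.40 CPM in 30d +P, with a log2 fold change of 0.97 (SE 0.26, adjusted p = 0.0683). All 6 libraries of 90 days lay above all 6 of 30 days. PIN5 (Ebr02G030890), another short carrier in Arabidopsis, ranged from 2.80 to 25.3 CPM in 90d -P, against 9.47 to 22.4 CPM in 30d -P, and from 15.1 to 30.2 CPM in 90d +P, against 9.62 to 41.3 CPM in 30d +P. These groups overlapped.

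All 3 AUX/LAX genes had negative log2 fold changes over time in both comparisons. LAX2 (Ebr02G060550, chromosome 2, 508717624 to 508722372), an influx carrier gene named after a barrel medic protein, had 129, 92.5 and 75.8 CPM in 90d -P, against 342, 279 and 203 CPM in 30d -P. The groups did not overlap, with a log2 fold change of -1.47 (SE 0.37, adjusted p = 0.0438). With phosphate it had 127, 127 and 72.0 CPM in 90d +P, against 182, 302 and 443 CPM in 30d +P, and the log2 fold change of -1.51 (SE 0.37, adjusted p = 0.0524) narrowly missed the call. The other LAX2 gene (Ebr03G035610) had 15.1, 18.1 and 6.54 CPM in 90d -P, against 29.9, 97.1 and 10.4 CPM in 30d -P, and these groups overlapped.

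Of the 15 PIN-LIKES genes tested, 2 were called lower in 90d -P, against 3.95% of all genes. PILS7 (Ebr04G055470, chromosome 4, 434291986 to 434296958) had 2.25, 0.73 and 2.78 CPM in 90d -P, against 130, 67.5 and 17.8 CPM in 30d -P, with a log2 fold change of -5.22 (SE 1.28, adjusted p = 0.0421). With phosphate it had 18.1, 1.02 and 55.7 CPM in 90d +P, against 39.2, 83.2 and 127 CPM in 30d +P, and replicate C of 90d +P lay above replicate A of 30d +P. PILS3 (Ebr04G065360, chromosome 4, 507060568 to 507063397) had 1.28, 0.365 and 0.432 CPM in 90d -P, against 2.15, 25.9 and 3.06 CPM in 30d -P. Its log2 fold change of -3.89 (SE 0.99, adjusted p = 0.0456) rested on 30d -P replicate B and was -1.93 without that library.

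Apart from the assembled PILS7 gene, which starts at 506615814, the PILS7 genes lay in mirrored pairs on chromosome 4. The first pair ended at 434306560 and the second began at 435223249. Ebr04G055470 (1935 bases) is followed after 1.55 kb by Ebr04G055480 (1077 bases) on the plus strand, and Ebr04G055650 (1077 bases) is followed after 1.44 kb by Ebr04G055660 (2040 bases, 435231892 to 435237512) on the minus strand. The longer gene of the second pair, Ebr04G055660, had 29.6, 11.4 and 12.5 CPM in 90d -P, against 403, 209 and 76.3 CPM in 30d -P, and its log2 fold change of -3.69 (SE 1.07, adjusted p = 0.0648) missed the call. The values with phosphate were 31.7, 4.35 and 142 CPM in 90d +P, against 132, 246 and 250 CPM in 30d +P. The shorter genes, named here after their values were seen, did not share this. Ebr04G055480 had 10.2, 13.8 and 15.8 CPM in 90d -P, against 5.45, 11.8 and 13.5 CPM in 30d -P. Ebr04G055650 had 11.9, 18.9 and 4.995 CPM in 90d -P, against 3.66, 5.29 and 4.21 CPM in 30d -P, with a log2 fold change of 1.44 (SE 0.53, adjusted p = 0.124). Whether neighbours with the same name are separate genes or pieces of 1 transcript was not tested.

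The most abundant PILS3 gene (Ebr04G065310) had 92.4, 62.0 and 79.4 CPM in 90d -P, against 124, 68.2 and 74.3 CPM in 30d -P. It reached 241 CPM in 90d +P replicate C, where replicates A and B had 27.7 and 7.95 CPM, against 60.2, 34.3 and 44.0 CPM in 30d +P. This library was also highest of its group for PILS7 (Ebr04G055470 and Ebr04G055660). The summed PIN-LIKES level was 576 CPM in it, beside 143 and 73.5 CPM in the other 90d +P libraries.

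In the GH3 class 1 gene stood far above the others. GH3.10 (Ebr03G018260, chromosome 3, 146480686 to 146484311), known in Arabidopsis for its part in hypocotyl growth under light, had 561, 397 and 333 CPM in 90d -P, against 228, 245 and 334 CPM in 30d -P. The values with phosphate were 536, 554 and 338 CPM in 90d +P, against 430, 382 and 432 CPM in 30d +P. The log2 fold change without phosphate was 0.68 (SE 0.26, adjusted p = 0.139). GH3.17 (Ebr03G073870), which joins auxin to glutamate in Arabidopsis, overlapped between all groups, with 49.96, 17.95 and 36.8 CPM in 90d -P, against 7.46, 14.1 and 124 CPM in 30d -P, and 18.7, 5.80 and 112 CPM in 90d +P, against 1.06, 45.4 and 34.9 CPM in 30d +P. Among the 6 GH3 genes tested, edgeR called 0 over time. Unadjusted p was under 0.05 for 2 higher genes without phosphate and for 1 lower gene with phosphate, GH3.9 (Ebr01G005320), with 3 reads in 90d +P and 42 in 30d +P (ratio of 30d +P over 90d +P 17.3, 95% exact interval 5.52 to 87.1). DESeq2 on all 12 libraries called 1 lower GH3 gene in each comparison, against 8.46% of all genes in 90d -P and 6.46% in 90d +P, and limma-voom called 0. In 90d +P it was GH3.9 (adjusted p = 0.0176), which DESeq2 on the 6 libraries called as well, against 6.26% of all genes. In 90d -P it was the GH3.10 gene Ebr01G026170, and DESeq2 on the 6 libraries called 3 lower GH3 genes there, Ebr01G026170, Ebr01G005530 and Ebr05G021470, against 8.99% of all genes. These 3 are not among the 6 that passed edgeR's filter.

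Phosphate supply was compared at each time. At 30 days edgeR called 0 of the 54 members, as it called 0.0% of all genes, and unadjusted p was under 0.05 for 1 member higher and 4 lower in 30d -P, against 2.93% and 4.27% of all genes. The median log2 fold change of the members was -0.24, beside -0.01 over all genes. A negative value was found in 19 of the 23 SAUR genes, beside 12308 of all 24307 genes tested. These signs are not independent, as 14 of the 23 shared the order of the 30 day libraries given above. DESeq2 on the 6 libraries called 1 member lower, an assembled PIN4 gene, against 1.33% of all genes, and DESeq2 on all 12 and limma-voom 0.

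GH3.10 was lower in each 30d -P library than in each 30d +P library, with 228, 245 and 334 CPM in 30d -P, against 430, 382 and 432 CPM in 30d +P. Groups without overlap were found for 2 higher and 6 lower members, against 6.82% and 8.34% of all genes. For GH3.10 the log2 fold change was -0.63 (SE 0.26, adjusted p = 0.68). An assembled SAUR21 gene of the first chromosome 5 array had 1.15, 0.327 and 0.891 CPM in 30d -P, against 1.38, 5.92 and 2.74 CPM in 30d +P, with a log2 fold change of -2.08 (SE 0.77, adjusted p = 0.664). In the other direction stood the PILS3 gene Ebr04G065360, with 2.15, 25.9 and 3.06 CPM in 30d -P, against 2.31, 1.58 and 1.47 CPM in 30d +P, and an assembled gene named PILS7 (chromosome 4, 506615814 to 506617079), with 13.2, 10.5 and 8.35 CPM in 30d -P, against 2.97, 8.40 and 5.08 CPM in 30d +P. SAUR50 and A10A5 overlapped between these groups: 30d -P replicate A lay nearest to 30d +P replicates B and C, and 30d +P replicate A nearest to 30d -P replicate C.

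At 90 days edgeR again called 0 members and 0.0% of all genes. Unadjusted p was under 0.05 for 1 member higher and 3 lower in 90d -P, against 2.38% and 3.5% of all genes. DESeq2 on all 12 libraries called 2 lower, PILS7 (Ebr04G055470) and PIN4, against 0.715% of all genes, and DESeq2 on the 6 libraries and limma-voom 0. SAUR50 (Ebr0G010070) was the 1 member whose groups did not overlap, where 4.43% of all genes were higher and 4.49% lower in that way. It had 0.0608, 0.243 and 0.00 CPM in 90d -P, against 1.21, 2.10 and 1.19 CPM in 90d +P, with a log2 fold change of -3.78 (SE 1.58, adjusted p = 0.842). The array sums lay in the same order, with 19, 48 and 11 reads in 90d -P, against 38, 157 and 40 in 90d +P, but overlapped.

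PIN4 (chromosome 5, 175555146 to 175557338), an assembled efflux carrier gene, had no read in 90d -P, against 0.00, 16.7 and 4.54 CPM in 90d +P. It was at least 38.7-fold lower in 90d -P than the mean of 90d +P, although 90d +P replicate A had no read either (adjusted p = 0.832). Without 90d +P replicate B the mean was 2.27 CPM and the bound 12.4-fold, and without replicate A the bound was 58.0-fold, settings added after the data were seen. At 30 days PIN4 had 0.00, 0.131 and 0.0638 CPM in 30d -P, against 0.00, 5.25 and 7.21 CPM in 30d +P. The log2 fold change there was -5.815 (SE 2.39, adjusted p = 0.68 from edgeR). PILS7 (Ebr04G055470) had 2.25, 0.73 and 2.78 CPM in 90d -P, against 18.1, 1.02 and 55.7 CPM in 90d +P, with a log2 fold change of -3.70 (SE 1.21, adjusted p = 0.832). SAUR76 (Ebr03G033900), with 5 reads in 90d -P and none in 90d +P, and GH3.9 (Ebr01G005320), with 0.85, 0.43 and 0.00 CPM in 90d -P, against 0.00, 0.0537 and 0.108 CPM in 90d +P, had the smallest unadjusted p among higher members.

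Whether phosphate supply changed the difference between the times was tested by the interaction. edgeR called 0 of the 54 members and 0 of all genes, DESeq2 on all 12 libraries and limma-voom called 0 members, and unadjusted p was under 0.05 for 2 members with a negative value, where 1.56% of all genes had a positive and 1.41% a negative one. They were PILS7 (Ebr04G055470, -3.48, SE 1.57) and PILS3 (Ebr04G065360, -2.94, SE 1.29), both with an adjusted p of 1.0. The smallest unadjusted p among positive values were those of SAUR76 (Ebr03G033900) and GH3.6 (Ebr06G049230), a gene that joins auxin to aspartate in Arabidopsis. GH3.6 had 0.00, 5.05 and 0.0617 CPM in 90d -P, against no read in 30d -P, so 1 library carried it.

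Other auxin genes were counted from 6 lists. Of the 8 ABCB transporter genes tested (17 listed), 1 was called lower in 90d -P than in 30d -P, and the same gene was also lower in 90d +P than in 30d +P. It was Ebr01G058740, described as an ABCB1-type transporter, which carries auxin out of cells in Arabidopsis, with log2 fold changes of -2.84 (SE 0.46, adjusted p = 0.0165) and -2.69 (SE 0.45, adjusted p = 0.0242). The auxin receptor TIR1 (Ebr02G044800) had a log2 fold change of -1.0 (SE 0.15, adjusted p = 0.0159) in 90d -P, at the fold minimum, and of -0.90 (SE 0.15, adjusted p = 0.0251) in 90d +P, just short of it. In 90d -P the auxin oxidase DAO (Ebr02G023400, -3.93, adjusted p = 0.0419) and PID2 (Ebr02G062190, -1.53, adjusted p = 0.0486), named after a kinase of PIN carriers, were called lower too. With TIR1 they were 1 of 7 receptor genes, 1 of 9 conjugate hydrolase and oxidase genes and 1 of 3 kinase genes tested. Of all genes, 3.95% were called lower in 90d -P and 2.18% in 90d +P. None of the 11 auxin synthesis and 9 proton pump genes tested was called by edgeR, with unadjusted p under 0.05 for 1 higher synthesis gene in each time comparison.

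Sums of marker lists of cell types also differed between the times. A list of 15 genes for secondary wall and vascular cells summed to 323, 82.9 and 21.8 CPM in 90d -P, against 1416, 2060 and 1443 CPM in 30d -P, and to 79.8, 10.9 and 187 CPM in 90d +P, against 746, 1504 and 1470 CPM in 30d +P. All 9 of its genes tested had negative log2 fold changes in both comparisons, and 1 was called in 90d -P, where 3.95% of all genes were called lower. The ABCB list is of transporters and not of cell type markers. It had 110, 127 and 80.2 CPM in 90d -P, against 628, 368 and 229 CPM in 30d -P. Of its 8 genes tested, 4 were higher and 4 lower in 90d -P, and 3 were higher and 5 lower in 90d +P. A list of 54 genes for dividing cells stayed between 161 and 225 CPM in all 12 libraries. The leaf mesophyll list of 57 genes summed to 51820, 26380 and 49120 CPM in 90d -P, against 50790, 48400 and 59660 CPM in 30d -P, and to 47220, 23240 and 41610 CPM in 90d +P, against 54150, 80770 and 51280 CPM in 30d +P. Of its 48 genes tested, 37 had a negative log2 fold change in 90d -P with 0 called (0 at an unadjusted p under 0.05), and 44 in 90d +P (median -0.68), where 13 lower genes had an unadjusted p under 0.05 and 1 was called. What part mesophyll, secondary wall and vascular cells had in the lower SAUR50 (Ebr0G010070), array, PIN3, LAX2 and longer PILS7 levels was not tested. In whole leaves, fewer cells of a type and less RNA per cell cannot be told apart.

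**Figure D5:**
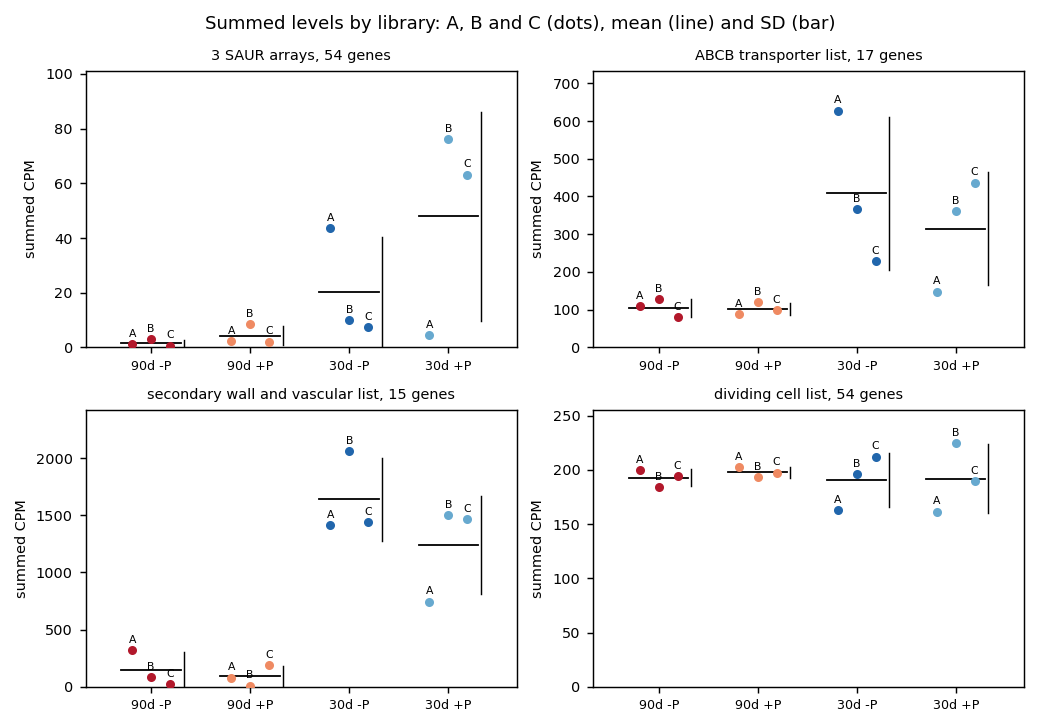
Summed CPM (y axis, linear from 0) of the 54 array SAUR genes, the ABCB list, the secondary wall and vascular list and the dividing cell list in the 4 groups (x axis), with a dot for each library, a line at the mean and a bar of 1 SD that stops at 0 (n = 3). The means of the first 3 sums are lower at 90 days. Of the 8 ABCB genes tested, 4 were higher and 4 lower in 90d -P than in 30d -P. The dividing cell list stays between 161 and 225 CPM.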

How the data were processed

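RNA was measured in 12 leaf libraries, 3 for each of 4 groups, and groups and replicate letters were taken from the sample titles. The authors aligned reads with HISAT2 2.0.5 to the E. pubescens genome, assembled transcripts with StringTie 1.3.3b and, per the labels, used featureCounts 1.5.0-p3. The deposited table holds raw counts per gene, and the authors' FPKM columns divide the same counts by gene length and a library size that was 0.887 to 1.17 times the total count. Handling of shared reads and strand is not given in the sources used here. Of the 53813 genes listed, 9092 were assembled and 15568 had no count. 

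Counts were tested with edgeR 4.0.16 in R 4.3.3 (TMM, filterByExpr, robust quasi-likelihood fit to all 12 libraries, Benjamini-Hochberg over 24307 genes). A call needed an adjusted p of at most 0.05 and a log2 fold change of at least 1 in size. The common biological coefficient of variation was 0.60, so replicate spread limited the precision, and for members with few counts depth did as well. Intervals and floors (3 counts per library) cover counting error only. The scripts were tested on simulated data. As alternatives, the factors came from RLE, genes with low counts were kept or had to reach 1 CPM in 3 libraries, the fold change minimum was dropped, and the tests were DESeq2 1.42.0, voom in limma 3.58.1, fits to 6 libraries, a block on the replicate letter and fits without each library in turn.

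Genes named were 3 markers (SAUR50, A10A5, PIN3), members the study names by ID, up to 5 called members with the highest and 5 with the lowest log2 fold change where groups did not overlap, the 2 members with the smallest p in each direction where none was called, and the 2 with the highest mean FPKM in each class. The members, lists and tests were chosen with earlier results of these data known, and the lists of other auxin genes and cell type markers were narrowed by protein name after the files were read. Exact intervals are Clopper-Pearson. Promoter and protein sequences were not analysed here.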

Additional observations from a re-analysis of the deposited data

How the results depend on the processing

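The number of members called was most sensitive in the comparisons over time. For 90d -P against 30d -P, 6 were called, 14 by DESeq2 on all 12 libraries, 19 by DESeq2 on the 6, 6 by limma-voom (3 of them shared), 2 without the filter on low counts and 0 by edgeR on the 6 libraries, and 0 to 7 with a library left out. For 90d +P against 30d +P, 2 were called, 8 and 12 by DESeq2 on 12 and on 6 libraries, 7 by limma-voom, 1 without the filter and 0 by edgeR on the 6 libraries, and 0 to 4 with a library left out. Shares of all genes called are given above for the main fit and, in part, for DESeq2. They were not counted for the other settings, so those counts describe the members only. DESeq2 called 1 member in 30d -P against 30d +P (6 libraries) and 2 in 90d -P against 90d +P (12 libraries), where edgeR called 0, and leaving out a library gave 0 there and in the interaction. RLE normalization, the filter of 1 CPM and dropping the fold change minimum kept each count within 1.5 times, and RLE kept the same 6 and 2 genes. With the replicate letter as a block, 0 members were called in both comparisons over time. Deviations from the group means correlated between -0.186 and 0.23 for same letters, and between -0.3 and 0.234 for different letters. Between the times, same letters A, B and C gave 0.189, -0.006 and 0.23 without phosphate. With phosphate they gave 0.147, 0.106 and -0.011. Different letters between the times ranged from -0.3 to 0.189 without phosphate and from -0.144 to 0.113 with phosphate. Whether a letter marks shared plants or pots is not given, so a pairing over time is not excluded.

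Of 1052 log2 fold changes of named genes under the alternatives, 18 had the other sign, none of them for a called gene, and the cause was not tested. Under limma-voom these were PIN5 (Ebr02G030890, -0.60), GH3.17 (Ebr03G073870, 0.64) and PILS3 (Ebr04G065310, 0.06) in 90d -P, and GH3.17 (-0.038) and PIN4 (-2.735) in 90d +P, with GH3.17 at 0.72 under the replicate block in 90d -P. With a library left out, log2 fold changes over time without phosphate ranged from -0.36 to 0.53 for PIN5, -0.99 to 1.69 for GH3.17 and -0.37 to 0.13 for PILS3. With phosphate they ranged from -0.14 to 1.21 for PIN5, -1.15 to 1.34 for GH3.17, -1.38 to 1.56 for PILS3, -0.78 to 1.04 for the assembled PILS7 gene and -0.87 to 1.44 for PIN4. Low counts limit the SAUR arrays, where 9 of 54 genes could be tested.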
